A study of Mus musculus with 4 samples.

Results

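The alcohol and aldehyde dehydrogenases described here are 8 genes of the mouse liver, *Adh1*, *Adh4*, *Adh5*, *Aldh1a1*, *Aldh1a7*, *Aldh1l1*, *Aldh2* and *Aldh3a2*, taken by gene symbol from a table of 35739 genes. Their RNA was measured by RNA-seq in whole liver of WT mice (replicates 2 and 3, called WT 2 and WT 3) and of *Usp21* KO mice (replicates 1 and 3, called KO 1 and KO 3), with 1 library per replicate. *Usp21* encodes a ubiquitin-specific protease, and the comparison asks how its loss changes liver RNA. The KO is constitutive, in all tissues: Cre recombination removed exons 3 and 4, which leads to a stop codon in exon 5. The allele came from ES cells of another mouse strain and was bred with C57BL/6 mice, so that the WT and KO littermates have a mixed background. All mice were 10 to 11 weeks old and received a normal diet.

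Alcohol dehydrogenases oxidize alcohols to aldehydes, and aldehyde dehydrogenases oxidize aldehydes to acids, in both cases with NAD or NADP as electron acceptor. In the liver, ethanol is oxidized to acetaldehyde by cytosolic alcohol dehydrogenase and then to acetate by the mitochondrial aldehyde dehydrogenase. Related enzymes act on retinol and retinal, on formaldehyde bound to glutathione, on formyl-tetrahydrofolate and on long-chain fatty aldehydes, and most are abundant in hepatocytes.

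Several of these genes lie close together and resemble each other in sequence, which bears on how reads are assigned to them. In GENCODE M21 (GRCm38), *Adh1* (chr3:138260991-138290698), *Adh4* (chr3:138415466-138430892) and *Adh5* (chr3:138443093-138455499) stand on the forward strand of chromosome 3, within 194.5 kb that hold 5 protein-coding genes, the others being *Adh6a* and *Adh6b*. *Aldh1a1* (chr19:20492715-20643465, forward) and *Aldh1a7* (chr19:20692953-20727562, reverse) face each other on chromosome 19 with 49.5 kb between them. The remaining genes are *Aldh1l1* (chr6:90486427-90600203, forward), *Aldh2* (chr5:121566027-121593824, reverse) and *Aldh3a2* (chr11:61223417-61267464, reverse). All 8 are protein coding.

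The *Aldh1a1* and *Aldh1a7* pair is shown in sequence, because the pair is the most alike among these genes and yet had different values in the KO libraries. Their coding sequences were 91.9% identical over 1501 aligned bases. The coding bases of their first coding exon are given here from the GENCODE M21 transcripts, for *Aldh1a1* at chr19:20602012-20602077 on the forward strand and for *Aldh1a7* at chr19:20727447-20727512 on the reverse strand, with the 3 of 66 bases that differ in capitals.
Aldh1a1, first coding exon: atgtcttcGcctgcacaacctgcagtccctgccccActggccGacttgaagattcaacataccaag
Aldh1a7, first coding exon: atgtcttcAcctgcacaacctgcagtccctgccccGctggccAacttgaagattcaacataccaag
Of all stretches of 31 bases in the transcripts of *Aldh1a1*, 5.70% also occur in *Aldh1a7*, and of those of *Aldh1a7*, 13.8% also occur in *Aldh1a1*. A read within such a stretch cannot be assigned to one of the pair by sequence alone. For the other members the share found in transcripts of any other gene was 11.4% in *Aldh1l1* (mostly *Gm15756*, antisense to it), 5.57% in *Adh1* (mostly *Gm16559*, antisense to it), 1.93% in *Aldh2*, 1.43% in *Adh5*, 0.414% in *Adh4* and 0% in *Aldh3a2*. The strand setting of the quantification is not given in the sources used here, so reads of *Aldh1l1* and *Adh1* and of their antisense partners may not have been told apart.

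The likeness extends upstream of the start. RefSeq promoter windows (GRCm38.p6, from 250 bases before the start) were matched for 7 of the 8 members, all but *Aldh2*, with more than 1 start for some of them. The 120 bases before a start of *Aldh1a1* (chr19:20601848-20601967, forward) and of *Aldh1a7* (chr19:20727557-20727676, reverse) were identical at 105 positions (87.5%), and the 15 that differ are in capitals. The other start listed for *Aldh1a1* was identical to *Aldh1a7* at 29.2% of these positions.
Aldh1a1, 120 bases before the start: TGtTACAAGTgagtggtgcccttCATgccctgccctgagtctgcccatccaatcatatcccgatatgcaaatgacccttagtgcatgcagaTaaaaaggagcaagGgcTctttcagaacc
Aldh1a7, 120 bases before the start: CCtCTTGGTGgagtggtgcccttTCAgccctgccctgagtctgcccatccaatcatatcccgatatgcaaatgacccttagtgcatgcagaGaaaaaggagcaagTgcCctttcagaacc
Both windows hold CCAAT beginning 72 bases before the start and ATGCAAAT (the octamer) beginning 56 bases before it, on the strand of the gene. The octamer was added to the search after these windows had been read. On either strand, CCAAT occurs in 33.8% and ATGCAAAT in 1.6% of 32851 RefSeq windows of the same length, and the octamer was found in no window of another member. TATAAA (12.4% of all windows), CACGTG (6.02%) and TTANGTAA (2.06%) were searched in the same way. CCAAT was also found in windows of *Adh4*, *Aldh1l1* and *Aldh3a2*. TATAAA was found 244 bases before the start of *Aldh1a7* and 207 bases before a start of *Adh5* that RefSeq lists upstream of the gene start given above, CACGTG 30 bases before that of *Aldh3a2*, and TTANGTAA in no window of a member. These are matches of letters and do not show that a factor binds.

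Values were deposited as TPM (transcript abundance scaled for transcript length and for the library total), which keep no read number. A second table held TMM-normalized CPM, which are read counts per gene after scaling of each library. Whole reads were recovered from it by taking the smallest value above 0 in each library as 1 read. On that assumption it held between 102898 and 148164 reads per library. In that second table only *Aldh2* (3, 3, 1 and 0 reads in WT 2, WT 3, KO 1 and KO 3) and *Aldh1l1* (1 read, in KO 1) were above 0, although *Adh1* and *Aldh2* rank 66 and 79 by mean TPM among all genes. Of 686 genes at or above 100 TPM in every library, 428 were at 0 throughout that table, so its totals need not give the depth of the libraries, and why the tables differ was not settled. No fold of a member is given from it. The tissue label was checked with 8 hepatocyte markers. Their summed TPM was 79836 and 64802 in the WT libraries and 68508 and 60554 in the KO libraries. The largest part was *Alb*, at 43181 (WT 2), 32024 (WT 3), 31006 (KO 1) and 27475 (KO 3) TPM. Of the 8 markers 4 had a positive and 4 a negative log2 fold change. An unadjusted limma p under 0.05 was reached by 2, both higher in KO, against 10.5% of all tested genes in either direction. *Usp21* itself was at 4.07 and 6.29 TPM in WT, compared with 1.64 and 2.93 TPM in KO, which was lower in both KO libraries without passing the adjusted threshold (log2 fold change -0.92, limma adjusted p = 0.464).

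*Adh1* and *Aldh1a1* were lower in both KO libraries than in both WT libraries, at 0.665 and 0.642 times the WT mean, and *Aldh1l1* and *Adh5* were lower with a smaller gap between the groups. *Aldh2* and *Aldh1a7* had KO means of 1.05 and 0.987 times WT, and the libraries of these 2 genes, of *Adh4* and of *Aldh3a2* overlapped between the groups. None of the 8 genes passed an adjusted p of 0.05 (limma on log2(TPM + 1), Benjamini-Hochberg over the 9581 genes that averaged 1 TPM or more), a threshold that 0.0835% of all tested genes passed. The p-values rest on the spread between 2 libraries per group, moderated towards a variance trend over all tested genes. Without that moderation the unadjusted p of the limma fit was 0.144 for *Adh1* and 0.204 for *Aldh1a1*. An exact permutation test of a single gene cannot go below 0.333 in this design.

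**Figure D1:**
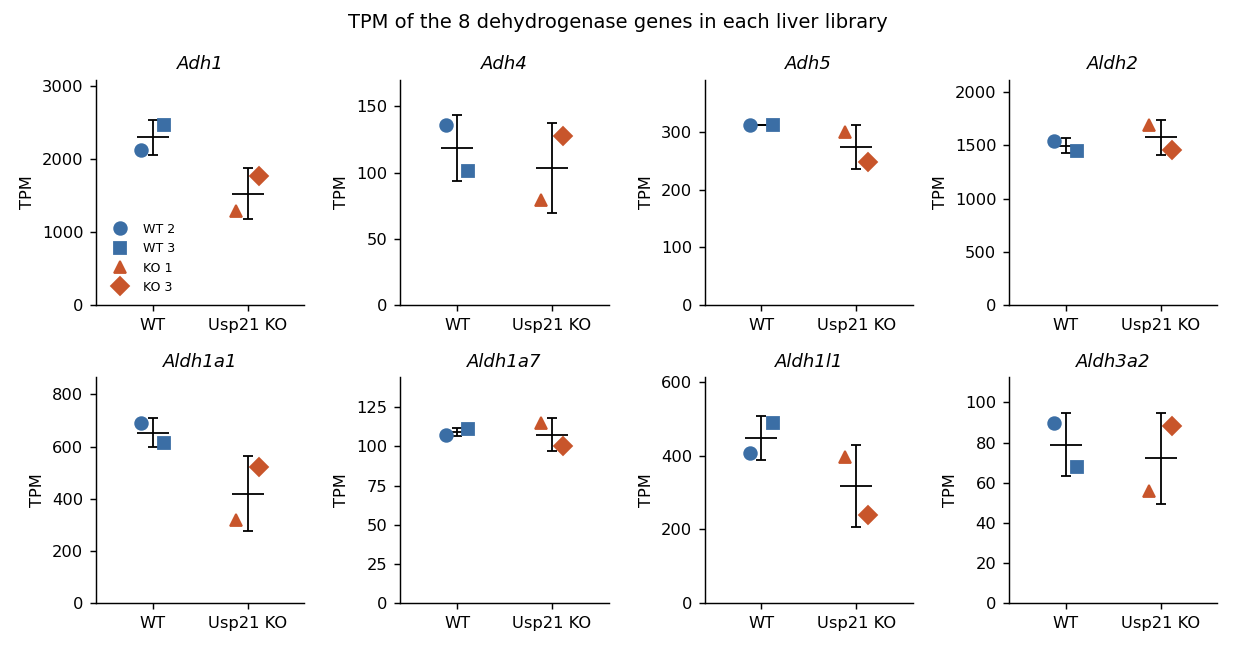
TPM of each of the 8 genes (vertical axes, each from 0) in the WT libraries (blue, replicates 2 and 3) and the Usp21 KO libraries (orange, replicates 1 and 3). Long horizontal bars with whiskers are group means ± SD (n = 2). Both KO points lie below both WT points for Adh1, Aldh1a1, Aldh1l1 and Adh5, and the groups overlap for the other 4 genes.

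*Adh1* encodes the class I alcohol dehydrogenase, the main liver enzyme for ethanol and also active on retinol. It was at 2126 and 2468 TPM in WT 2 and WT 3 and at 1283 and 1774 TPM in KO 1 and KO 3. Both KO libraries were lower than both WT libraries, and KO 1 was the lowest. The group means were 2297 ± 242 TPM in WT and 1528 ± 347 TPM in KO (SD, n = 2 each), and the log2 fold change was -0.60 (SE 0.24, 95% interval -1.20 to -0.01). Its unadjusted limma p was 0.0486 and its adjusted p was 0.473.

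*Adh5* encodes the class III enzyme, which oxidizes the glutathione adduct of formaldehyde and reduces S-nitrosoglutathione. Its levels were 311.4 and 312.1 TPM in WT 2 and WT 3 and 300.3 and 247 TPM in KO 1 and KO 3. The WT libraries were nearly equal, KO 1 was just under them and KO 3 was lower. The log2 fold change was -0.19 (SE 0.18, limma adjusted p = 0.690).

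*Adh4* encodes the class II enzyme, which acts on retinol and on larger alcohols. It was at 136 and 101 TPM in WT 2 and WT 3 and at 79.4 and 128 TPM in KO 1 and KO 3. KO 1 was below both WT libraries and KO 3 lay between them. The log2 fold change was -0.22 (SE 0.28, 95% interval -0.92 to 0.49, limma adjusted p = 0.785).

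Among the aldehyde dehydrogenases, *Aldh2* encodes the mitochondrial enzyme that oxidizes acetaldehyde. It was at 1546 and 1447 TPM in WT 2 and WT 3 and at 1694 and 1459 TPM in KO 1 and KO 3. KO 1 was the highest library, KO 3 lay within the WT range, and the log2 fold change was 0.07 (SE 0.19, 95% interval -0.41 to 0.55, limma adjusted p = 0.899). Scaling each library to its upper quartile, which lowers the values of KO against WT for the genes as a whole, gave -0.06.

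*Aldh1a1* encodes the cytosolic retinal dehydrogenase that makes retinoic acid. It was at 692 and 614 TPM in WT 2 and WT 3 and at 318 and 521 TPM in KO 1 and KO 3. As with *Adh1*, each KO library was below either WT library and KO 1 was the lowest. The group means were 653 ± 55.0 TPM in WT and 420 ± 143 TPM in KO (SD, n = 2 each), with a log2 fold change of -0.68 (SE 0.27, 95% interval -1.35 to -0.0031). The unadjusted limma p was 0.0492 and the adjusted p was 0.473.

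*Aldh1a7*, the neighbour of *Aldh1a1*, encodes a close relative of it in rodents. It was at 107 and 111 TPM in WT 2 and WT 3 and at 115 and 99.97 TPM in KO 1 and KO 3. The KO libraries lay on either side of the WT libraries, and the log2 fold change was -0.02 (SE 0.17, 95% interval -0.44 to 0.39). The ratio of *Aldh1a1* to *Aldh1a7* was 6.46 and 5.54 in WT and 2.76 and 5.21 in KO, so KO 1 stood apart and KO 3 was just below WT. The summed TPM of the pair depends less on how reads were split between them. It is not free of the split, because the transcripts used here differ in length (2358 and 2066 bases). The summed values were 799 and 725 in WT and 434 and 621 in KO (log2 fold change -0.55, limma adjusted p = 0.478).

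*Aldh1l1* encodes the cytosolic 10-formyltetrahydrofolate dehydrogenase of folate metabolism. It was at 406 and 490 TPM in WT 2 and WT 3 and at 396 and 239 TPM in KO 1 and KO 3. Here KO 3 was the low library and KO 1 was just below WT 2, the reverse of the order in *Adh1* and *Aldh1a1*. The log2 fold change was -0.54 (SE 0.28, 95% interval -1.23 to 0.16, limma adjusted p = 0.517).

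*Aldh3a2* encodes the fatty aldehyde dehydrogenase of the endoplasmic reticulum and peroxisomes. It was at 90.0 and 67.9 TPM in WT 2 and WT 3 and at 56.1 and 88.2 TPM in KO 1 and KO 3. KO 1 was the lowest, KO 3 lay between the WT libraries, and the log2 fold change was -0.15 (SE 0.27, limma adjusted p = 0.850).

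Counted together, 7 of the 8 genes had a negative log2 fold change and 1, *Aldh2*, a positive one (-0.06 with upper quartile scaling, which shifts the genes as a whole). An unadjusted p under 0.05 was reached by 2 of the 8, *Adh1* and *Aldh1a1*, both lower in KO, against 2.04% of all tested genes that were lower and 10.5% in either direction. The groups did not overlap in 4 of the 8, all lower in KO, against 10.9% of all tested genes that were lower and 45.3% in either direction. The members were chosen with earlier results of these data known, so neither count tests for an excess among them. None of the 8 changed at least 2-fold, against 3.68% of all tested genes. The median log2 fold change of the 8 genes was -0.20, while that of all tested genes was 0.15, and all 8 lay below the latter. Upper quartile scaling moved these medians to -0.34 and 0.03.

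**Figure D2:**
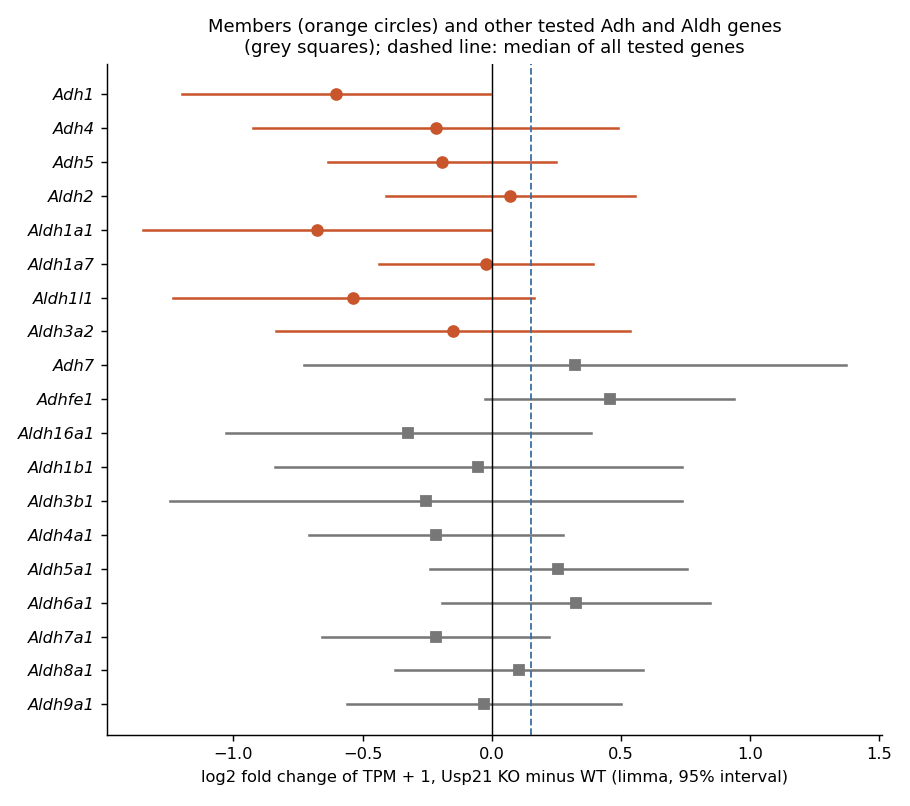
Log2 fold change of TPM + 1, Usp21 KO minus WT (horizontal axis), with the 95% limma interval for the 8 genes (orange circles) and for the other tested Adh and Aldh genes (grey squares). The dashed line is the median of all tested genes, 0.15. The intervals of Adh1 and Aldh1a1 end just below 0, and those of the other genes include 0.

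In total the 3 alcohol dehydrogenases made up 2573 and 2882 TPM in WT 2 and WT 3 and 1662 and 2149 TPM in KO 1 and KO 3. The KO sums were lower than both WT sums, at 0.699 times the WT mean. *Adh1* alone was between 77.2% and 85.7% of that sum in each library, so the sum mostly repeats its values. The 5 aldehyde dehydrogenases summed to 2841 and 2729 TPM in the WT libraries against 2579 and 2406 TPM in the KO libraries, at 0.895 times the WT mean. *Aldh2* took 54.4% and 53.0% of this sum in WT and 65.7% and 60.6% in KO, and *Aldh1a1* took 24.4% and 22.5% in WT and 12.3% and 21.6% in KO. The ratio of *Adh1* to *Aldh2*, the enzymes of the first and second step of ethanol oxidation, was 1.38 and 1.71 in WT and 0.757 and 1.22 in KO. In KO 1, *Adh1* was thus below *Aldh2*, which was the case in no other library. The ratio of *Adh1* to *Aldh1a1* overlapped between the groups, with 3.07 and 4.02 in WT and 4.03 and 3.41 in KO.

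**Figure D3:**
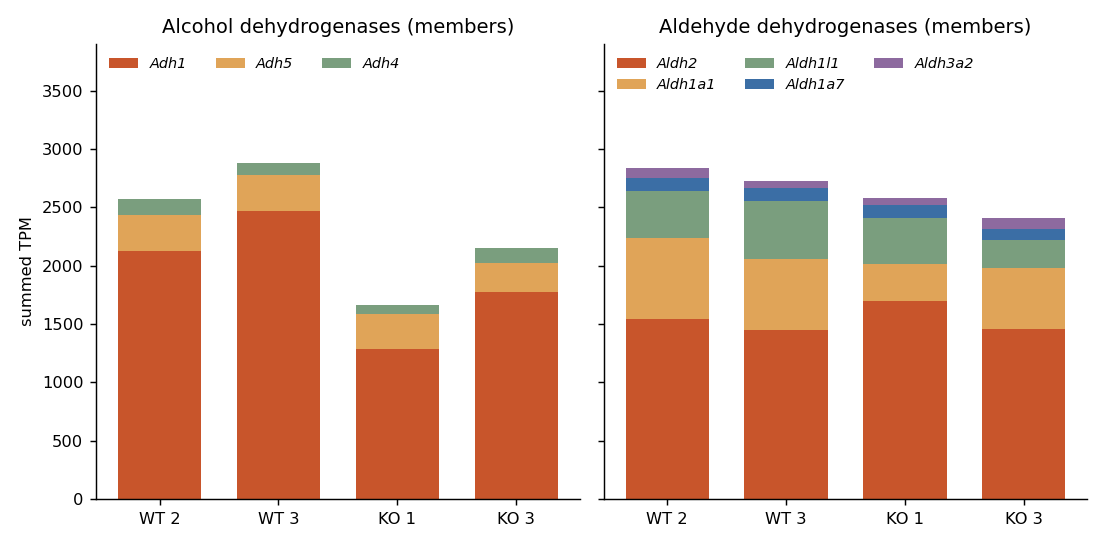
Summed TPM (vertical axis, from 0) of the 3 alcohol dehydrogenases (left) and the 5 aldehyde dehydrogenases (right) in each library, stacked by gene. The Adh1 segment is shorter in both KO libraries than in both WT libraries, and the Aldh2 segment stays between 1447 and 1694 TPM.

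TPM is scaled for length, so levels can be compared between genes. In WT the order from high to low was *Adh1*, *Aldh2*, *Aldh1a1*, *Aldh1l1*, *Adh5*, *Adh4*, *Aldh1a7* and *Aldh3a2*, and 6 of the 7 neighbouring pairs did not overlap, the exception being *Adh4* and *Aldh1a7*. In KO the order was *Aldh2*, *Adh1*, *Aldh1a1*, *Aldh1l1*, *Adh5*, *Aldh1a7*, *Adh4* and *Aldh3a2*, and 2 of the 7 pairs did not overlap, *Adh1* with *Aldh1a1* and *Adh5* with *Aldh1a7*.

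In TPM, the KO libraries differed from each other by more than the WT libraries did for all 8 genes. The same was not counted over all tested genes, so it cannot be called particular to the members. KO 1 was below KO 3 for *Adh1*, *Adh4*, *Aldh1a1* and *Aldh3a2* and above it for *Adh5*, *Aldh1a7*, *Aldh1l1* and *Aldh2*. Without KO 1 the log2 fold change of *Adh1* was -0.37 and that of *Aldh1a1* -0.32, neither with an unadjusted p under 0.05, while without KO 3 they were -0.84 and -1.03. *Aldh1l1* did the opposite, with -0.90 without KO 1 and -0.17 without KO 3. For the 4 genes whose groups overlapped, the sign changed with the library left out.

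**Figure D4:**
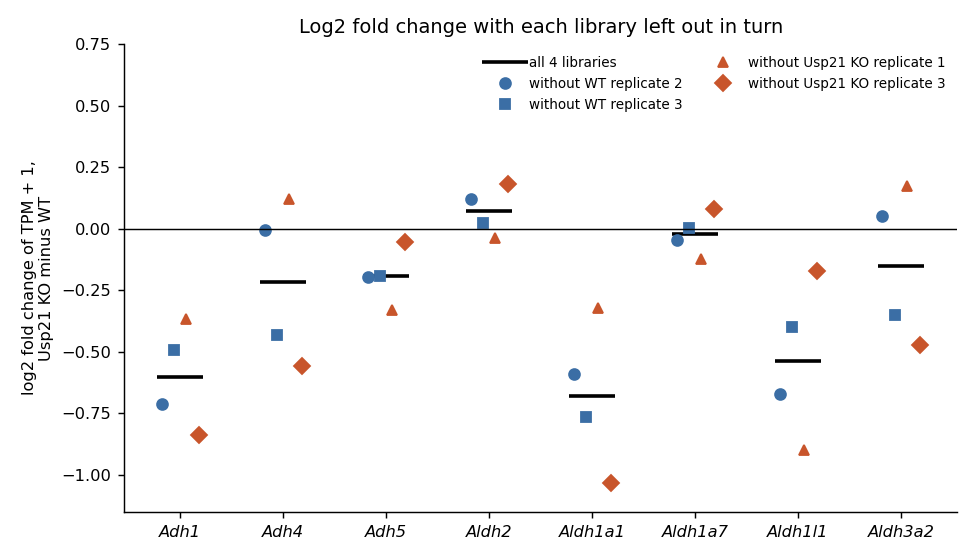
Log2 fold change of TPM + 1, Usp21 KO minus WT (vertical axis), of each gene with all 4 libraries (black bars) and with 1 library left out (points by the library left out). The values of Adh1 lie between -0.84 and -0.37, those of Aldh1a1 between -1.03 and -0.32 and those of Aldh1l1 between -0.90 and -0.17.

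The profile of each gene over the 4 libraries was compared with those of 83 genes, the other members and the companion lists described next, by the root mean square difference of centred log2(TPM + 1). The nearest profile was that of *Akr1c19* for *Adh1* (0.043), of *Adh1* for *Aldh1a1* (0.166), of *Sardh* for *Adh5* (0.054), of *Agmo* for *Aldh1a7* (0.032), of *Dmgdh* for *Aldh2* (0.034) and of *Acss2* for *Aldh1l1* (0.137), while *Adh4* and *Aldh3a2* were nearest to each other (0.036). With 4 libraries these are descriptions.

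Of the other alcohol dehydrogenase genes, *Adhfe1*, which oxidizes 4-hydroxybutyrate, was at 29.9 and 33.5 TPM in WT, compared with 48.9 and 39.2 TPM in KO, higher in both KO libraries (log2 fold change 0.46, limma adjusted p = 0.479). The pseudogene row *Adh6-ps1* with identifier ENSMUSG00000121473 was at 8.37 and 9.21 TPM in the WT libraries against 13.8 and 11.8 TPM in KO 1 and KO 3 (log2 fold change 0.49, limma adjusted p = 0.479). Another row of that name, ENSMUSG00000090306, was under the filter, with 1.45 and 1.35 TPM in KO 1 and KO 3 and a listed 0 in WT 2 and WT 3, and shares 1.30% of the 31-base stretches of *Adh1*. *Adh7* had a log2 fold change of 0.32 with overlapping libraries. *Adh6a* was under the filter, and *Adh6b* was listed at 0 in every library. Of 16 other aldehyde dehydrogenase genes, 9 were tested, 3 with a positive and 6 with a negative log2 fold change, none with an unadjusted limma p under 0.05. Against the median of all tested genes, 0.15, 7 of these 9 lay below and 2 above. Their log2 fold changes were -0.32 for *Aldh16a1*, -0.25 for *Aldh3b1*, -0.22 for both *Aldh4a1* and *Aldh7a1*, -0.05 for *Aldh1b1*, -0.03 for *Aldh9a1*, 0.11 for *Aldh8a1*, 0.26 for *Aldh5a1* and 0.33 for *Aldh6a1*. *Aldh1a2* and *Aldh3a1* were among the 4 listed at 0 in all libraries, with *Aldh3b2* and *Aldh3b3*.

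Genes that share substrates or pathways with the members showed no adjusted p under 0.05 in any list. Below, higher and lower are counted against 0. Against the median of all tested genes, 0.15, all 11 tested aldo-keto reductases lay below it, as all 8 members did. So did 8 of 10 fatty aldehyde, 14 of 21 retinoid and 3 of 4 ethanol and acetate genes. In the folate one-carbon list it was 13 of 23, and in the formaldehyde and nitrosothiol list 4 of 8. In ethanol and acetate metabolism 2 of 4 tested genes were higher and 2 lower, none with an unadjusted p under 0.05. *Cyp2e1*, the microsomal ethanol oxidase, was at 4802 and 3150 TPM in WT, compared with 3106 and 3041 TPM in KO (log2 fold change -0.34). *Cat*, the peroxisomal catalase, was at 975 and 798 TPM in the WT libraries against 1184 and 1204 TPM in KO 1 and KO 3 (log2 fold change 0.44, limma adjusted p = 0.487), higher in both KO libraries.

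In the retinoid list, 10 of 21 tested genes were higher and 11 lower. An unadjusted limma p under 0.05 was reached by 1 in each direction. Over all tested genes this share was 10.5% in either direction and 2.04% lower. *Rdh16f2*, a short-chain dehydrogenase of the retinol dehydrogenase family, was at 148 and 114 TPM in WT, compared with 88.5 and 56.1 TPM in KO (log2 fold change -0.87, limma adjusted p = 0.464). *Aox3*, an aldehyde oxidase that can act on retinal, was at 91.6 and 56.7 TPM in the WT libraries against 125 and 119 TPM in KO 1 and KO 3 (log2 fold change 0.75, limma adjusted p = 0.464). The groups did not overlap for either gene, one lower and the other higher in KO.

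In folate one-carbon metabolism, where *Aldh1l1* acts, 12 of 23 tested genes were higher and 11 lower. *Slc25a32*, the mitochondrial folate carrier, had a log2 fold change of 0.67 (limma adjusted p = 0.469). In the formaldehyde and nitrosothiol list, where *Adh5* acts, 5 of 8 were higher and 3 lower. *Gclc*, the catalytic subunit of the enzyme that starts glutathione synthesis, was at 67.0 and 43.0 TPM in the WT libraries against 113 and 114 TPM in the KO libraries, higher in both KO libraries (log2 fold change 1.06, limma adjusted p = 0.450).

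In the fatty aldehyde list, where *Aldh3a2* acts, 6 of 10 tested genes were higher and 4 lower. Among the aldo-keto reductases, which reduce aldehydes and ketones, 9 of 11 tested genes were lower and 2 higher, with a median log2 fold change of -0.16. *Akr1c19* was at 57.9 and 70.5 TPM in the WT libraries against 37.6 and 49.4 TPM in KO 1 and KO 3 (log2 fold change -0.56, limma adjusted p = 0.469). *Akr1d1*, the steroid 5-beta-reductase, was at 60.7 and 62.1 TPM in WT, compared with 46.7 and 42.4 TPM in KO (log2 fold change -0.46, limma adjusted p = 0.464).

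**Figure D5:**
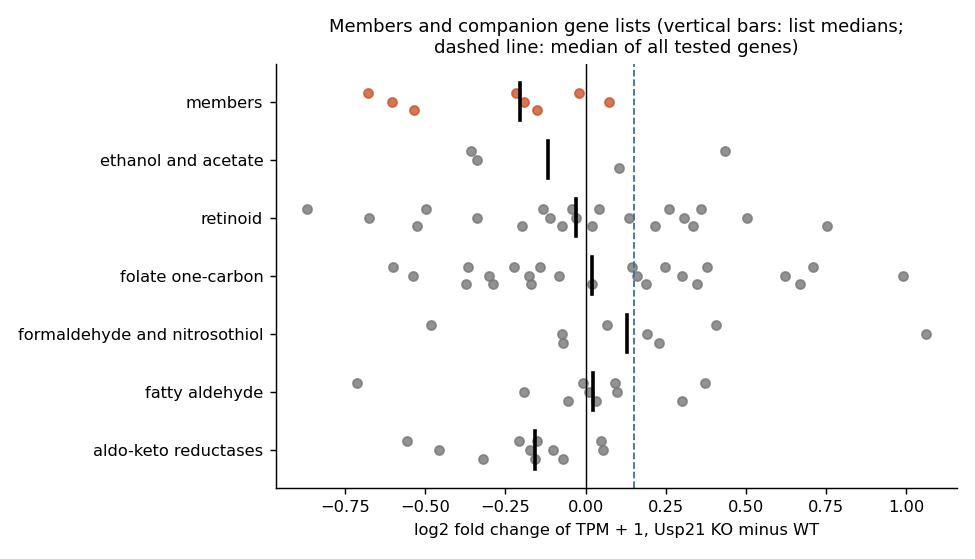
Log2 fold change of TPM + 1, Usp21 KO minus WT (horizontal axis), of the tested genes of each list (points, with small vertical offsets for visibility). Vertical black bars are list medians and the dashed line is the median of all tested genes, 0.15. The median of the 8 members was -0.20 and that of the aldo-keto reductases -0.16.

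Because whole liver was sequenced, fewer cells of a type and less RNA per cell cannot be told apart in these values. Markers of hepatocyte zones and of other liver cells were read beside them. Of 8 tested pericentral hepatocyte genes 7 had a negative log2 fold change. The groups did not overlap in 6 of the 8, lower in KO, and in 1, higher in KO. Over all tested genes this share was 10.9% lower and 45.3% in either direction. The pericentral list summed to 5952 and 4017 TPM in the WT libraries against 4043 and 3710 TPM in the KO libraries, most of it *Cyp2e1*. All 10 periportal genes had a positive log2 fold change, 7 above the median of all tested genes and 3 below it. The groups did not overlap in 3 of these 10, higher in KO. Over all tested genes this share was 45.3% in either direction and 10.9% lower, so most of it was higher in KO too. The periportal sums were 5216 and 5006 TPM in WT, compared with 7101 and 4891 TPM in KO. None of the tested genes of these 2 lists had an unadjusted p under 0.05. The Kupffer cell list of 9 genes summed to 185 and 212 TPM in the WT libraries. Its sums in KO 1 and KO 3 were 97.8 and 251 TPM, so the groups overlapped. The 7 tested stellate cell and fibroblast genes all had a positive log2 fold change. The sums of that list were 135 and 95.3 TPM in WT, compared with 196 and 132 TPM in KO. The cholangiocyte list summed to 14.6 and 16.2 TPM in the WT libraries against 38.3 and 24.5 TPM in the KO libraries. Most of this sum was *Spp1*, at 13.2 (WT 2), 12.7 (WT 3), 33.4 (KO 1) and 20.7 (KO 3) TPM, so it mostly repeats that gene. Of the 6 cholangiocyte genes 4 were under the filter, and the libraries of the other tested gene, *Sox9*, overlapped between the groups. Under the filter, *Krt19* was at 0.196 (WT 2), 0.263 (WT 3), 0.998 (KO 1) and 1.28 (KO 3) TPM, low but higher in both KO libraries. The libraries of *Krt7*, *Epcam* and *Cldn7*, also under the filter, overlapped between the groups. In each of the last 2 lists 1 gene had an unadjusted limma p under 0.05, both with groups that do not overlap. Over all tested genes 10.5% had such a p in either direction. *Rgs5*, a pericyte and stellate cell marker, had a log2 fold change of 1.51 (limma adjusted p = 0.405), and *Spp1*, a cholangiocyte marker, one of 0.97 (limma adjusted p = 0.464). *Lyve1*, of the sinusoidal endothelium, had one of 0.98 (limma adjusted p = 0.472). Its levels were low, at 0.651 (WT 2), 0.298 (WT 3), 2.91 (KO 1) and 1.14 (KO 3) TPM. Of the 9 tested genes of its list, 7 had a positive and 2 a negative log2 fold change. Only *Lyve1* among them had groups that do not overlap. The list median was 0.15, like that of all tested genes. The list sums overlapped between the groups, at 82.8 (WT 2), 58.8 (WT 3), 66.4 (KO 1) and 87.9 (KO 3) TPM. Neither the stellate cell nor the cholangiocyte list had a member at 0 in all libraries. The part of these markers in the values of *Adh1* and *Aldh1a1* was not tested.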

How the data were processed

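RNA-seq was performed on liver of 2 WT and 2 *Usp21* KO mice, and samples were grouped by their labels. The authors estimated abundance with salmon against mm10 and deposited TPM per gene. They also deposited TMM-normalized CPM from HTSeq counts, treated as a count-based signal, from which whole reads were recovered (100% whole within 0.02 reads). Tool versions, annotation and strand setting are not given in the sources used here. A further 2 deposited tables, logarithms of these values, were not used, and 0 columns were left unused.

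Genes that averaged 1 TPM or more over the 4 libraries were tested on log2(TPM + 1), which understates changes of low genes, with limma 3.58.1 (R 4.3.3, trended empirical Bayes, two-sided, Benjamini-Hochberg, prior degrees of freedom 3.62). Without a stated number of reads behind TPM no counting interval was given. In the second table a count of 0 allows up to 3 reads, for counting error only. Alternatives were pseudocounts of 0.1 and 5, no filter or 5 TPM, upper quartile scaling, variances without moderation, limma on CPM, edgeR 4.0.16 and DESeq2 1.42.0 on recovered reads, each library left out, and the sum of *Aldh1a1* and *Aldh1a7*. The tests were run on simulated data with larger changes than the members had with all 4 libraries. For edgeR and DESeq2 the genes changed in the simulation had more reads than any member. The simulation therefore does not show how the tests perform for the members. The members and lists were chosen with earlier results of these data known.

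Named genes are the 8 members, the other Adh and Aldh genes, those of each companion list past the adjusted threshold, and up to 2 per list with the largest change among genes with an unadjusted p under 0.05 and groups that do not overlap, and the gene with the nearest profile to each member. Some genes that meet this rule are not reported here. *Cyp2e1*, *Cat*, *Alb*, *Rgs5*, *Lyve1*, *Spp1* and the other named cholangiocyte genes were added after their values were seen. Sequences are from GENCODE M21 and RefSeq, read with Python 3.11.15 and aligned with Biopython 1.88.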

Additional observations from a re-analysis of the deposited data

How the results depend on the processing

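On TPM, no member passed the adjusted threshold under any alternative. With limma on CPM, edgeR and DESeq2 only *Aldh1l1* and *Aldh2* could be tested, since the other members have 0 reads there, and neither passed. The number with an unadjusted p under 0.05, 2 as reported, was 0 with a pseudocount of 5, without a filter, with a minimum of 5 TPM and without moderation of variances. On the recovered reads, where *Adh1* and *Aldh1a1* were not tested, it was 0 for edgeR and 0 for DESeq2. It was 1 (*Aldh2*) with limma on CPM, where *Aldh2* rests on at most 3 reads per library, so no fold, 2-fold count, overlap count or median was taken from that table. It was 3 with upper quartile scaling, *Aldh1l1* being the added gene. Leaving out 1 library gave between 0 and 2: 0 without WT replicate 2, 0 without WT replicate 3, 1 without KO replicate 1 and 2 without KO replicate 3. The number changed at least 2-fold ranged from 0 to 1 and that with groups that do not overlap from 5 to 8, with both highest values reached without KO replicate 3, where 1 KO library stands against 2. With 1 library left out, the groups of between 70.3% and 76.8% of all tested genes did not overlap. In those fits the lone library is assumed to vary like the others.

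Signs reversed for *Aldh2* with upper quartile scaling (-0.062, with the median of all genes moving from 0.15 to 0.03), and across the libraries left out for *Adh4* (-0.56 to 0.12), *Aldh2* (-0.036 to 0.18), *Aldh3a2* (-0.47 to 0.17) and *Aldh1a7* (-0.12 to 0.080), all as log2 fold changes. The positive values were 0.12 for *Adh4* without KO replicate 1, 0.05 and 0.17 for *Aldh3a2* without WT replicate 2 and KO replicate 1, and 0.0026 and 0.080 for *Aldh1a7* without WT replicate 3 and KO replicate 3. The log2 ratio of the summed aldehyde dehydrogenases was -0.16 as reported and -0.29 with upper quartile scaling. Apart from the shift by scaling, the cause of these changes was not tested. No paired analysis was possible because the sample labels record no litter or pair.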
